A study of Pinus pinaster with 4 samples.

Results

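A pair of phenylcoumaran benzylic ether reductase (PCBER) contigs and a putative cinnamoyl CoA reductase (CCR) contig of maritime pine (Pinus pinaster) were followed through 4 needle libraries. They are 3 of the 17571 contigs in the RNA-Seq table, and all 3 had reads in every library. They were taken by identifier: sp_v3.0_unigene23552, described as a putative CCR by its match in Arabidopsis (AT2G23910); sp_v3.0_unigene28358, a PCBER homolog named TH6 from Tsuga heterophylla, a hemlock; and sp_v3.0_unigene16601, a second PCBER whose best match is from Pinus strobus. The Arabidopsis matches of the PCBER contigs differ, AT1G75290 for TH6 and AT4G39230 for the second. They may therefore not be copies of the same enzyme. The difference between the provenances, and for the PCBER pair its opposite direction, had been seen when these contigs were picked. Their provenance values are therefore given as a description, without a test.

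CCR reduces the CoA esters of hydroxycinnamic acids to aldehydes, which is the entry step of the branch that makes monolignols, the alcohols from which lignin is built. Cinnamyl alcohol dehydrogenases then reduce these aldehydes to the alcohols. Monolignols also couple in pairs to form lignans and related dimers, and PCBER is an NADPH-dependent enzyme that opens the ether ring of the phenylcoumaran type of dimer. PCBER belongs to a family that also holds pinoresinol-lariciresinol reductases and isoflavone reductases. In conifers these phenolics serve cell walls and defence.

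The Leiria libraries L6 and L7 came from plants of a coastal Portuguese provenance, and the Tamrabta libraries T3 and T6 from plants of a provenance of the Moroccan Atlas Mountains. All were rooted cuttings from a clonal collection, potted at 17 months, kept in 1 greenhouse, pruned, and harvested at the same time, with 1 needle library for each plant. It is not stated whether L6 and L7, or T3 and T6, were cuttings of 1 clone. Levels are in CPM, the reads of a contig in every 1000000 reads of its library, after TMM scaling, which corrects for library composition, and the fold change (logFC) is the mean log2(CPM + 0.5) of Leiria less that of Tamrabta, so negative values mean higher expression in Tamrabta. The libraries held between 40019608 and 58835449 reads on contigs. Photosynthesis genes, which mark needle tissue, were abundant: the 4 of 12 listed that had a row summed to 6821 and 5100 CPM in Leiria and to 3912 and 3003 CPM in Tamrabta.

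The CCR contig was higher in Tamrabta. Its level was 47.9 and 30.9 CPM in L6 and L7, against 258 and 196 CPM in T3 and T6. Both Leiria plants lay below both Tamrabta plants, and the nearest plants of the provenances, L6 and T6, were 4.09-fold apart. The mean was 39.4 ± 12.0 CPM in Leiria and 227 ± 43.9 CPM in Tamrabta (SD, n = 2 each), so the Leiria mean was 0.174 of the Tamrabta mean. The logFC was -2.53 (standard error over plants 0.37). These values rest on 1742 and 1808 reads in L6 and L7 and on 13015 and 8807 reads in T3 and T6, and the largest difference between 2 plants of the same provenance was 1.55-fold.

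PCBER TH6 was also higher in Tamrabta, but its Leiria plants were far apart. Its level was 21.6 and 3.20 CPM in L6 and L7, against 44.8 and 41.3 CPM in T3 and T6. L7 had the lowest level. On the fold scale L6 was nearer to the Tamrabta plants than to L7: T6 was 1.91-fold above L6, and L6 was 6.75-fold above L7. In CPM, however, L6 was slightly nearer to L7 than to T6. The mean was 12.4 ± 13.0 CPM in Leiria and 43.1 ± 2.47 CPM in Tamrabta (SD, n = 2 each), and the logFC of -2.27 had a standard error over plants of 1.29. Without L7 the logFC was -0.98 and without L6 it was -3.56, so its size depends on which Leiria plant is kept. Leaving out either of 2 plants shifts the mean by the same amount, so these values do not single out L7. The exact Poisson 95% interval of the L7 level, from 187 reads, was 2.75 to 3.69 CPM, and that of L6, from 785 reads, was 20.1 to 23.1 CPM. Such intervals cover counting error only.

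The second PCBER contig had the opposite direction. Its level was 29.0 and 15.3 CPM in L6 and L7, against 2.22 and 1.69 CPM in T3 and T6. Both Leiria plants were above both Tamrabta plants, with 6.90-fold between the nearest plants, L7 and T3, and at most 1.90-fold between 2 plants of a provenance. The mean was 22.2 ± 9.70 CPM in Leiria and 1.95 ± 0.374 CPM in Tamrabta (SD, n = 2 each), a ratio of 11.3, and the logFC was 3.15 (standard error over plants 0.48). The Tamrabta levels rest on 112 reads in T3 and 76 reads in T6, with exact Poisson 95% intervals of 1.83 to 2.67 CPM and 1.33 to 2.11 CPM, so the contig was low there but clearly above the 3 reads that a count of 0 allows.

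**Figure D1:**
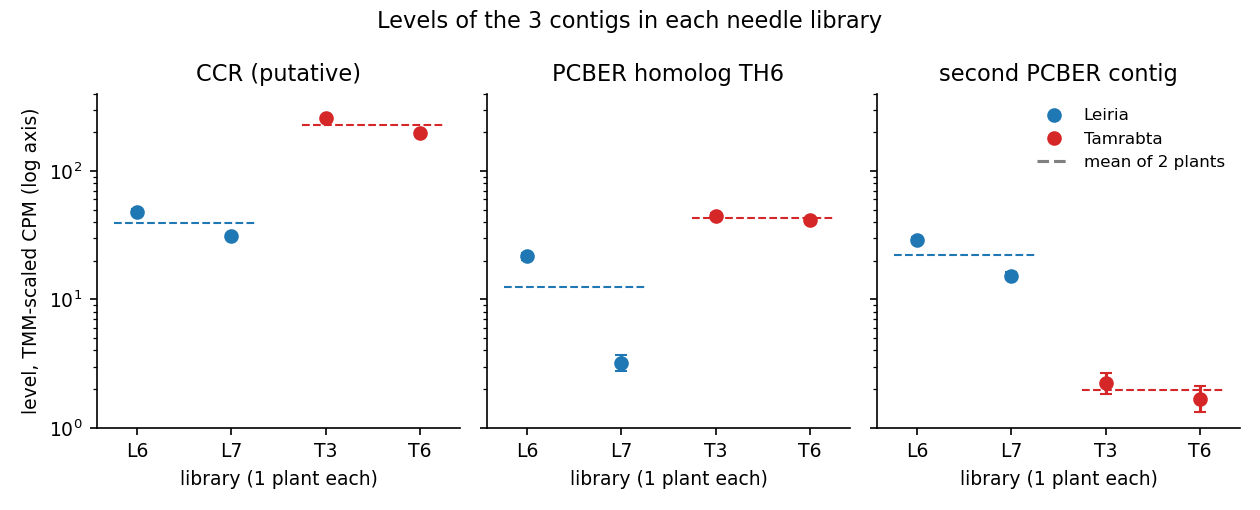
Level in TMM-scaled CPM (log axis) of the CCR contig, PCBER TH6 and the second PCBER contig in each library, Leiria in blue and Tamrabta in red. Points are single plants with exact Poisson 95% intervals, dashed lines are means of 2 plants. CCR lies between 30.9 and 47.9 CPM in Leiria and between 196 and 258 CPM in Tamrabta. TH6 is lowest in L7, and the second PCBER contig is the one that is higher in Leiria.

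The values of the provenances did not overlap for all 3 contigs, as was the case for 49% of the table. The gap between the provenances exceeded the largest difference within a provenance for the CCR contig and the second PCBER contig and not for TH6. Such a gap was found for 17.4% of contigs in the table. The members had been picked on this contrast, so nothing is read from these counts. By logFC, 79 contigs lay below the CCR contig, 117 below TH6, and 82 above the second PCBER contig.

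The reads of the contigs were next compared within each library. Such a ratio does not depend on how libraries are scaled. It holds the unknown ratio of contig lengths, which is the same in every library, so ratios can be compared between libraries but do not give relative amounts of transcript. For each read of the second PCBER contig there were 0.743 reads of TH6 in L6 (exact binomial 95% interval 0.677 to 0.816) and 0.209 reads in L7 (0.177 to 0.245), whereas T3 had 20.2 reads of TH6 (16.7 to 24.6) and T6 had 24.4 (19.4 to 31.2). The pair thus had more reads of the second contig in both Leiria plants and more of TH6 in both Tamrabta plants. As a share of the reads of both contigs, TH6 held 42.6% and 17.3% in L6 and L7, against 95.3% and 96.1% in T3 and T6. On the log2 scale the mean ratio was -1.34 ± 1.30 in Leiria and 4.47 ± 0.20 in Tamrabta (SD, n = 2 each), and the ratio differed between plants of the 2 provenances by 27.2-fold for the nearest pair, L6 and T3, and by 117-fold for the most distant, L7 and T6.

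The CCR contig followed neither PCBER contig in the same way. Its ratio to the second PCBER contig was 1.65 and 2.02 in L6 and L7, against 116 in both T3 and T6. This was the steadiest of the ratios within a provenance, and the plants of the provenances were 57.4-fold to 70.4-fold apart. Its ratio to TH6 was 2.22 and 9.67 in L6 and L7, against 5.76 and 4.74 in T3 and T6. Here the provenances overlapped, with the Leiria plants on either side of the Tamrabta plants, and the log2 difference of -0.17 was small beside a standard deviation between plants of 1.07.

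**Figure D2:**
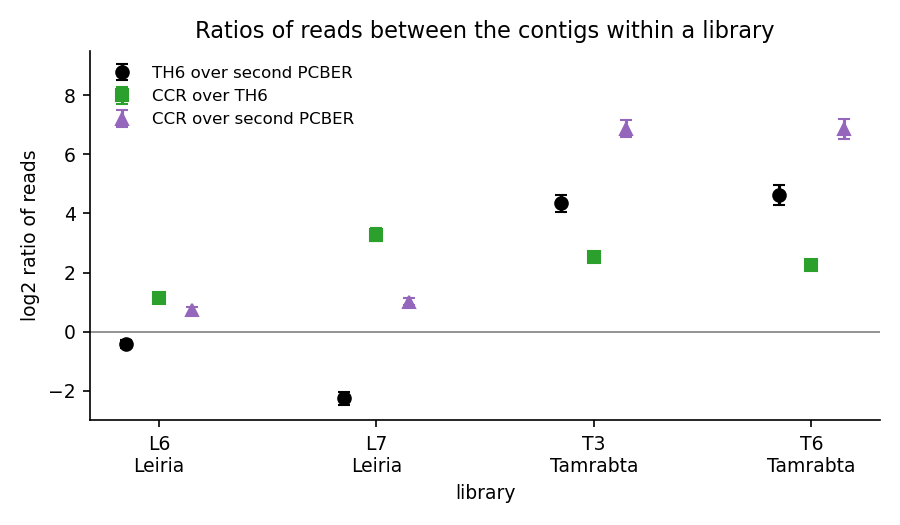
Log2 ratio of reads between the contigs within each library, with exact binomial 95% intervals. TH6 over the second PCBER contig is -0.43 and -2.26 in Leiria and 4.34 and 4.61 in Tamrabta, CCR over the second PCBER contig is 0.72 and 1.01 in Leiria and 6.86 in both Tamrabta plants, and CCR over TH6 overlaps between the provenances.

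Differences between the 2 plants of a provenance were not used to pick the contigs. They were set beside those of the 11218 contigs with a mean level of at least 5 CPM. In Leiria all 3 contigs were higher in L6 than in L7, and 50.8% of the background contigs were too. The difference for TH6 was 2.58 on the log2 scale, larger than for 99.5% of the background contigs, and 52 of them differed by as much or more. The differences were 0.90 for the second PCBER contig and 0.62 for the CCR contig, larger than for 94.6% and 89.4% of the background contigs, whose median difference was 0.18. In Tamrabta the log2 difference between T3 and T6 was 0.40 for CCR and 0.12 for TH6, where the background median was 0.30. It was 0.31 for the second PCBER contig, which reached the minimum of 5 CPM only through its Leiria libraries and is therefore not placed in the Tamrabta background. The value of TH6 was -0.01 with each library summed to 1000000, so the order of T3 and T6 depends on the scaling. TH6 thus differed more than most contigs between the Leiria plants and less than most between the Tamrabta plants, where 21.5% of the background contigs had a smaller difference. With 2 plants in a provenance these differences have no test.

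**Figure D3:**
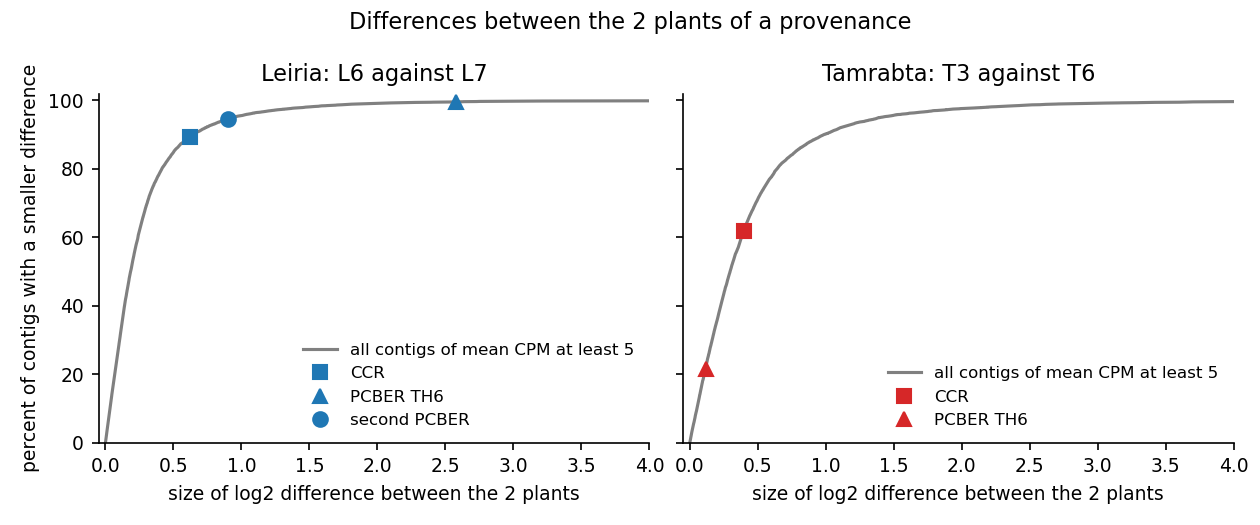
Cumulative share of the 11218 contigs of mean CPM at least 5 (grey curve) against the size of the log2 difference between the 2 plants of a provenance, with the 3 contigs marked in Leiria, and CCR and TH6 in Tamrabta. In Leiria TH6 lies at 2.58, at the upper end of the curve, and in Tamrabta at 0.12, on its lower part.

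Photosynthesis markers and the second PCBER contig had the same order of libraries. All 4 photosynthesis contigs with a row were highest in L6, followed by L7, T3 and T6, and their logFC had a median of 0.80. With each library summed to 1000000 the median was 0.65 and the order held for all 4, whereas after quantile normalization the median was 0.46 and the order held for 3. The exact test of edgeR called 1 of the 4 (5.99% of the table was called), DESeq2 called 1 (6.19%), limma called 0 (0.154%), and the count was also 0 in the quasi-likelihood test of edgeR (0.0114%). All 4 had an unadjusted p under 0.05 in limma, beside 14.7% of the table. Of 2 contigs listed for vascular cells, 1 had a row. It was sp_v3.0_unigene23334, described as a nuclear-enriched phloem companion cell 8 protein. Its label also carries a heat shock protein entry (HS217), so it may not mark vascular cells. It had 7.28 and 7.03 CPM in L6 and L7, against 13.8 and 42.0 CPM in T3 and T6. It was higher in Tamrabta, as were the CCR contig and TH6, and it was called by the exact test of edgeR (FDR 0.0142) and by DESeq2 (adjusted p = 0.0141) but not by limma (adjusted p = 0.293) or the quasi-likelihood test of edgeR (FDR 0.284). Both marker lists were drawn from array rows listed for a low p on arrays that included these plants. Their directions, p-values and calls are therefore not independent evidence. The part of tissue composition in the levels of the 3 contigs was not tested. In such bulk samples, fewer cells of a type and less RNA for each cell cannot be told apart.

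Other contigs linked to the phenylpropanoid route were taken from lists of the monolignol, lignan, flavonoid and shikimate steps and of R2R3-MYB transcription factors. Of 30 such contigs besides the 3 above, 13 had a row, and the others, which include 4 further members of the PCBER family and 2 dirigent proteins, were not analysed here. All but 1 of the 13 had been listed for a low p on arrays that included these plants, and the remaining one, chalcone synthase, is named in the study's text, so their directions are not independent evidence. Expression was higher in Leiria for 5 and higher in Tamrabta for 8, a split that was the same when libraries were summed to 1000000 or quantile normalized, and the median logFC was -0.38, where that of all contigs was 0.011. For 11 of the 13 the plants of Leiria and Tamrabta did not overlap, of which 6 were higher in Tamrabta, while 49% of the table did not overlap. The limma test (adjusted p under 0.05 and absolute logFC over 1) called 0 of the 13, beside 0.154% of the table, with 7 of 13 at an unadjusted p under 0.05, beside 14.7%. On recovered counts, the exact test of edgeR called 4 of the 13, all higher in Tamrabta, beside 5.99% of the table in either direction and 2.49% higher in Tamrabta. The count was also 4 with DESeq2 (6.19% of the table) and was 0 with the quasi-likelihood test of edgeR (0.0114%).

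Among the monolignol steps, 2 O-methyltransferase contigs that match the same pine protein had opposite directions. Their Arabidopsis matches differ, AT1G62900 for sp_v3.0_unigene105542 and AT5G54160 for sp_v3.0_unigene11023, so they may not serve the same step. O-methyltransferases of the lignin route add the methoxy groups of its precursors. The first, sp_v3.0_unigene105542, had 1.24 and 4.10 CPM in L6 and L7, against 13.7 and 24.9 CPM in T3 and T6, a logFC of -2.75 (standard error over plants 0.82, limma adjusted p = 0.174, edgeR exact test FDR 0.00066). Leiria was low in both plants, but here L7 exceeded L6, the reverse of the order of CCR and both PCBER contigs. The other, sp_v3.0_unigene11023, had 11.7 and 14.8 CPM in L6 and L7, against 7.39 and 6.71 CPM in T3 and T6, a logFC of 0.86 (standard error over plants 0.17, adjusted p = 0.203 from limma). The name of the CCR contig is putative, so its place in this route is not settled. The step after CCR was represented by a putative sinapyl alcohol dehydrogenase (sp_v3.0_unigene3224), of the family that reduces the aldehydes to monolignols. It was abundant and similar throughout, with 462 and 430.5 CPM in L6 and L7, against 441 and 556 CPM in T3 and T6, and the provenances overlapped (logFC -0.15, standard error over plants 0.17, adjusted p = 0.759 from limma). A contig described as an N-hydroxycinnamoyl/benzoyltransferase (sp_v3.0_unigene20456) also overlapped, with 38.9 and 66.2 CPM in L6 and L7, against 69.7 and 64.8 CPM in T3 and T6. It was listed with these steps by its description only, so its role in the lignin route is not settled.

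The flavonoid branch draws on the same CoA esters as CCR. Its entry enzyme, chalcone synthase (sp_v3.0_unigene30752), had 25.5 and 14.0 CPM in L6 and L7, against 101 and 104 CPM in T3 and T6, and a logFC of -2.41 (standard error over plants 0.42, limma adjusted p = 0.104, edgeR exact test FDR 2.34e-07). Contigs described as dihydroflavonol-4-reductase (sp_v3.0_unigene93947) and anthocyanidin reductase (sp_v3.0_unigene28159), later steps of that branch, were the others called by the exact test of edgeR (FDR 0.0189 and 0.00139). Their limma adjusted p was 0.156 and 0.179. Dihydroflavonol-4-reductase, which makes the leucoanthocyanidins, had 4.01 and 3.04 CPM in L6 and L7, against 15.5 and 9.34 CPM in T3 and T6 (logFC -1.65, standard error over plants 0.39). Anthocyanidin reductase makes precursors of condensed tannins. The contig so described matches AT5G42800 in Arabidopsis, while another with that description, which had no row, matches AT1G61720. Its enzyme is therefore not settled. It had 2.72 and 5.15 CPM in L6 and L7, against 13.5 and 28.7 CPM in T3 and T6 (logFC -2.24, standard error over plants 0.67). The logFC of sp_v3.0_unigene93947 and sp_v3.0_unigene28159 was negative as for CCR and TH6, and for sp_v3.0_unigene28159 L7 lay above L6. A contig described by a chalcone domain (sp_v3.0_unigene28293) was the only one of the 4 flavonoid contigs with a row that was higher in Leiria, with 5.06 and 4.99 CPM in L6 and L7, against 3.51 and 3.27 CPM in T3 and T6 (limma adjusted p = 0.341). The list of shikimate and chorismate enzymes held steps of the shikimate route, which supplies phenylalanine, and isochorismate synthase, which draws chorismate into another branch. Of its 4 contigs, 0 were called by any of the 4 tests, and 1, shikimate kinase (sp_v3.0_unigene8994), had an unadjusted p under 0.05 in limma. Its logFC was -0.99 (standard error over plants 0.48), with 150.2 and 136 CPM in L6 and L7, against 204 and 396 CPM in T3 and T6. The enzyme that makes enolpyruvylshikimate phosphate (sp_v3.0_unigene34176) was abundant, with 553 and 655 CPM in L6 and L7, against 921 and 666 CPM in T3 and T6. A contig described only as a predicted alternative dehydroquinate synthase (sp_v3.0_unigene195414) and an isochorismate synthase (sp_v3.0_unigene7290) had small positive values of logFC, 0.29 and 0.35. The 1 contig of the R2R3-MYB list with a row (sp_v3.0_unigene210278) had a logFC of 0.44 (standard error over plants 0.31, adjusted p = 0.502 from limma).

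**Figure D4:**
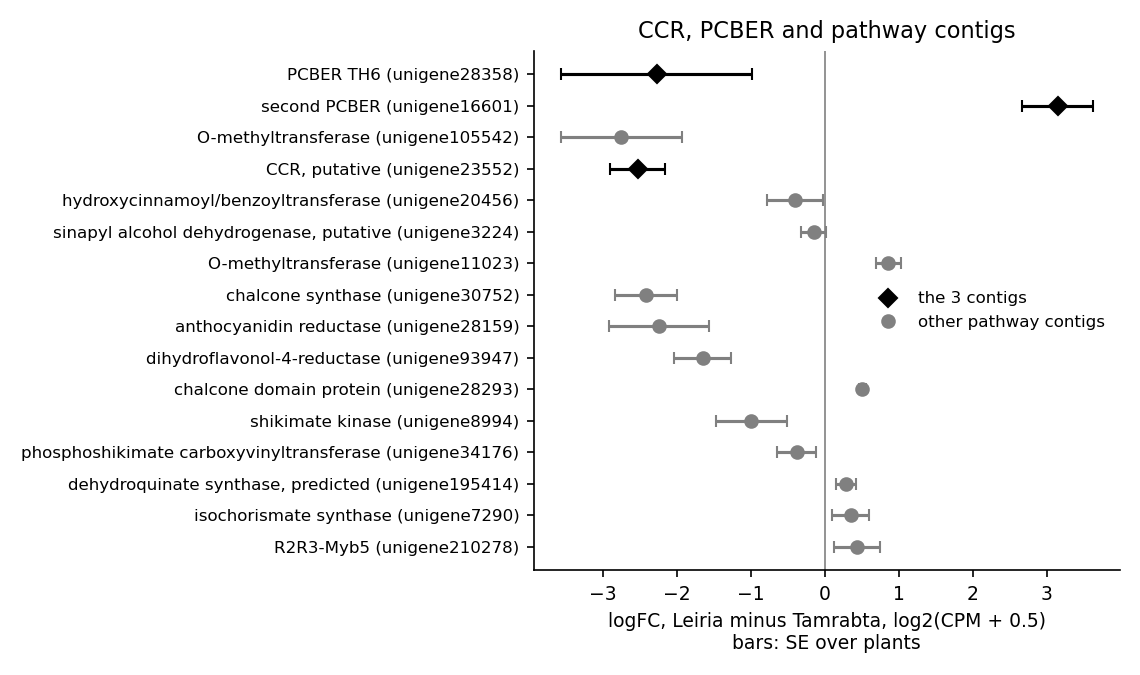
The logFC (Leiria minus Tamrabta) of the CCR contig and both PCBER contigs (black diamonds) and of the 13 other pathway contigs with a row (grey circles), bars giving the standard error over plants (n = 2 each). The second PCBER contig, at 3.15, lies far to the right of the other contigs, and 1 O-methyltransferase, the chalcone synthase and anthocyanidin reductase contigs lie near CCR and TH6, between -2.75 and -2.24.

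Contigs with a similar profile were sought by the distance between centred log2(CPM + 0.5) values over the 4 libraries, among 988 contigs with a description and a mean level of at least 1 CPM. Descriptions came only from the 1791 array rows held, the source of the pathway contigs listed for a low p. Contigs that differ between the provenances were thus favoured, and the nearest described contig need not be the nearest of all 16361. The nearest to CCR was a glutathione S-transferase (sp_v3.0_unigene32843), an enzyme class that couples glutathione to other molecules, at a distance of 0.27. Its levels were 42.0 and 31.6 CPM in L6 and L7, against 213 and 200.2 CPM in T3 and T6. The next was an S-adenosylmethionine decarboxylase leader sequence (sp_v3.0_unigene139733), from a gene of polyamine synthesis, at 0.42. This contig was also among the nearest to TH6, at 1.27, behind a homolog of the gibberellin receptor GID1 (sp_v3.0_unigene128920) at 1.26. Fewer contigs resembled TH6: 1 of 16361 contigs, described or not, lay within 0.5 of TH6, while 12 lay within 0.5 of CCR and 10 within 0.5 of the second PCBER contig. The large difference of TH6 between L6 and L7, given above, enters this distance, so the count is not a separate result. For the second PCBER contig the nearest described contigs were a putative nucleic acid binding protein (sp_v3.0_unigene38897) at 0.58, with 7.15 and 4.60 CPM in L6 and L7, against 0.0991 and 0.311 CPM in T3 and T6, and an unassigned protein (sp_v3.0_unigene100073) at 0.66, with 5.91 and 5.35 CPM in L6 and L7, against 0.0793 and 0 CPM in T3 and T6. They reached a mean of 1 CPM only through Leiria, and their Tamrabta values rest on 5 and 14 reads and on 4 and 0 reads in T3 and T6, so the pseudocount of 0.5 largely sets the distances there. With 4 libraries such likeness is a description only.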

How the data were processed

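RNA-Seq of needles from 4 plants was analysed, 2 of each provenance. Arrays, qPCR and metabolites were not analysed here. After trimming in SeqTrimNext, the authors aligned read pairs to SustainPineDB contigs (Bowtie2, concordant pairs kept) and deposited the counts as a signal, CPM scaled by TMM in edgeR, with 1 value per contig in each library. The sources used here do not give the Bowtie2 version, whether counting used strand, or the handling of pairs that match several contigs, so similar PCBER contigs may share reads. Dividing each column by the value of 1 read gave whole reads for 100% of 70284 values within a tolerance of 0.01. Recovered reads totalled 40019608 (L6), 58835449 (L7), 49935290 (T3) and 40807468 (T6). No sequences were used, and names came from the 1791 array rows held.

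The main test was limma 3.58.1 (R 4.3.3) with an intensity trend on log2(CPM + 0.5), all 4 libraries, Benjamini-Hochberg adjustment over 17571 contigs, and contigs were called where the adjusted p was under 0.05 and the absolute logFC exceeded 1. Alternatives were the edgeR 4.0.16 exact and quasi-likelihood tests and DESeq2 1.42.0 on recovered counts, pseudocounts of 0.1 and 1, a filter at a mean CPM of 5, other scalings, a replicate block, and each library left out. Fits were tested on simulated data. The smallest two-sided p of an exact permutation test is 0.333 for 2 against 2 plants. The named genes were the 3 contigs, every listed pathway contig with a row, and the 2 described contigs with the nearest profile to each. Members and lists were chosen with earlier results of these data known.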

Additional observations from a re-analysis of the deposited data

How the results depend on the processing

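The 3 contigs were picked on the contrast of the provenances, and their values did not overlap between them. Leaving out a library could therefore not reverse the sign. The logFC kept its sign under all 12 alternatives run for each of the 3 contigs. It lay between -2.84 and -2.22 for sp_v3.0_unigene23552, between -3.56 and -0.98 for sp_v3.0_unigene28358 and between 2.70 and 3.60 for sp_v3.0_unigene16601, each range set by leaving out a library. The log2 ratio of TH6 to the second PCBER contig differed between the provenances by -5.82, and by -6.73 to -4.90 with 1 library left out. Within a provenance, summing each library to 1000000 gave a log2 difference of 0.50 for CCR and 0.77 for the second PCBER contig in Leiria, and of 0.27 for CCR and -0.01 for TH6 in Tamrabta; quantile normalization gave 0.25 for CCR in Tamrabta. The order of T3 and T6 for TH6 thus depends on the scaling. The number of contigs called in the table was 27 with limma, 17 with a pseudocount of 1, 5 with a mean CPM of at least 5, 1053 with the exact test of edgeR, 2 with its quasi-likelihood test and 1088 with DESeq2. It was between 0 and 32 with 1 library left out, which leaves a lone plant that is assumed to vary like the others. Of the 13 pathway contigs, the exact test of edgeR and DESeq2 called 4 each and limma 0. The cause of these shifts was not tested. With the replicate number as a block, limma called 9 contigs, of which 0 were pathway contigs. The labels do not say that the numbers pair plants. The log2 difference of L6 from L7 and that of T3 from T6 correlated at 0.23 across contigs of mean CPM at least 5. With 2 pairs this is too little to take as pairing. Low reads limit the second PCBER contig in Tamrabta.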
